A study of Mus musculus with 12 samples.

Results

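The change in gene expression seen with loss of Rinl was compared between 2 states of mouse CD4+ T cells. For each gene the log2 fold change of knockout (KO) over wild-type (WT) was taken in effector cells and in naive cells, and the naive value was subtracted from the effector value. A negative difference therefore means that KO lay lower, relative to WT, in effector cells than in naive cells. The comparison needs all 12 libraries of the study, which are 3 WT naive, 3 KO naive, 3 WT effector and 3 KO effector libraries. Cells were taken from spleen and peripheral lymph nodes of WT or Rinl-KO mice and sorted by flow cytometry, naive cells as CD62L+CD44lo and effector cells as CD62L-CD44hi. No stimulus or treatment is given for any group, and the sources used here do not give the age or strain of the mice, the altered part of Rinl or the cells in which it was deleted. Whether libraries of 1 group are from separate animals is not stated, and p-values then measure only their spread, which may be technical.

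Rinl belongs to the RIN family of proteins, which load GTP onto RAB5-type GTPases and so act in the traffic of surface receptors through early endosomes. Naive CD4+ T cells circulate through lymphoid tissue and have not yet met antigen, whereas the CD44hi compartment is a mixture of T helper 1 (Th1), T follicular helper (Tfh), regulatory (Treg) and other antigen-experienced cells. A sorted effector sample can thus change because its cells change or because its mixture does, and in bulk RNA fewer cells of a type and less RNA per cell cannot be told apart.

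Total counts lay between 20072199 and 24320247 in the KO naive libraries, against 12409965 to 19584111 for the WT naive, 12893396 to 16428862 for the WT effector and 11606251 to 20381010 for the KO effector libraries. Levels are CPM scaled by TMM, and libraries are numbered 1 to 3 (WT naive), 4 to 6 (WT effector), 7 to 9 (KO naive) and 10 to 12 (KO effector). The sort marker gene Cd44 averaged 18.8 CPM in WT naive and 256 CPM in WT effector libraries, and the summed level of 8 general CD4 T cell markers lay between 4560 and 5082 CPM in every library. Naive means of Rinl itself were 294 (WT) and 33.0 CPM (KO), and effector means 450 (WT) and 47.6 CPM (KO). Its difference of -0.09 between log2 fold changes of -3.16 (naive) and -3.24 (effector) had a 95% interval of -0.23 to 0.05 (edgeR adjusted p = 0.74).

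Few genes had a KO effect that was called as different between the 2 states. Of 15905 genes tested, 23 (0.145%) had KO effects that differed between effector and naive cells at an adjusted p below 0.05 in edgeR's quasi-likelihood test. The difference was negative for 20 of them (0.126% of genes tested) and positive for 3 (0.0189%). In the same model 187 genes (1.18%) were called for KO against WT in naive cells, 108 higher (0.679%) and 79 lower (0.497%). In effector cells 503 (3.16%) were called, 230 higher (1.45%) and 273 lower (1.72%). A call in 1 cell type only was made for 116 genes (naive) and 432 genes (effector), and for 19 of these the states differed by the test of the difference. The 95% interval of the difference included 0 for 257 of these 548 genes. An unadjusted p below 0.05 was reached by 291 of the 548, and by 9.19% of all genes tested. Genes called in effector cells changed there by a median size of 0.37, and by 0.11 in the same direction in naive cells. For genes called in naive cells the median was 0.36 there and 0.22 in the same direction in effector cells. The calls themselves picked these genes, so the medians are a description. The number of called differences ranged from 10 without library 8 to 85 without library 4 when 1 library was left out. A call in 1 state and not in the other was thus rarely a called difference between the states.

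The 23 genes fell into patterns according to the KO change in each state. For 16 of them the change had opposite signs, 14 being higher in KO naive and lower in KO effector libraries and 2 the reverse. A further 5 had the same sign with a larger size in effector cells, and 2 the same sign with a larger size in naive cells. By the test within each state, 13 of the 23 were called in effector cells only, 6 in naive cells only and 4 in both. In 3 of those 4, namely Ccl5, Plac8 and Myo1f, KO was called higher in naive and lower in effector cells. For all 23 genes, each of the 81 ways of taking 1 library from each group gave the same sign of the difference, which was so for 654 (4.11%) of the genes tested. Libraries of the 2 genotypes did not overlap for 21.5% of tested genes in naive and 17.9% in effector cells.

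**Figure D1:**
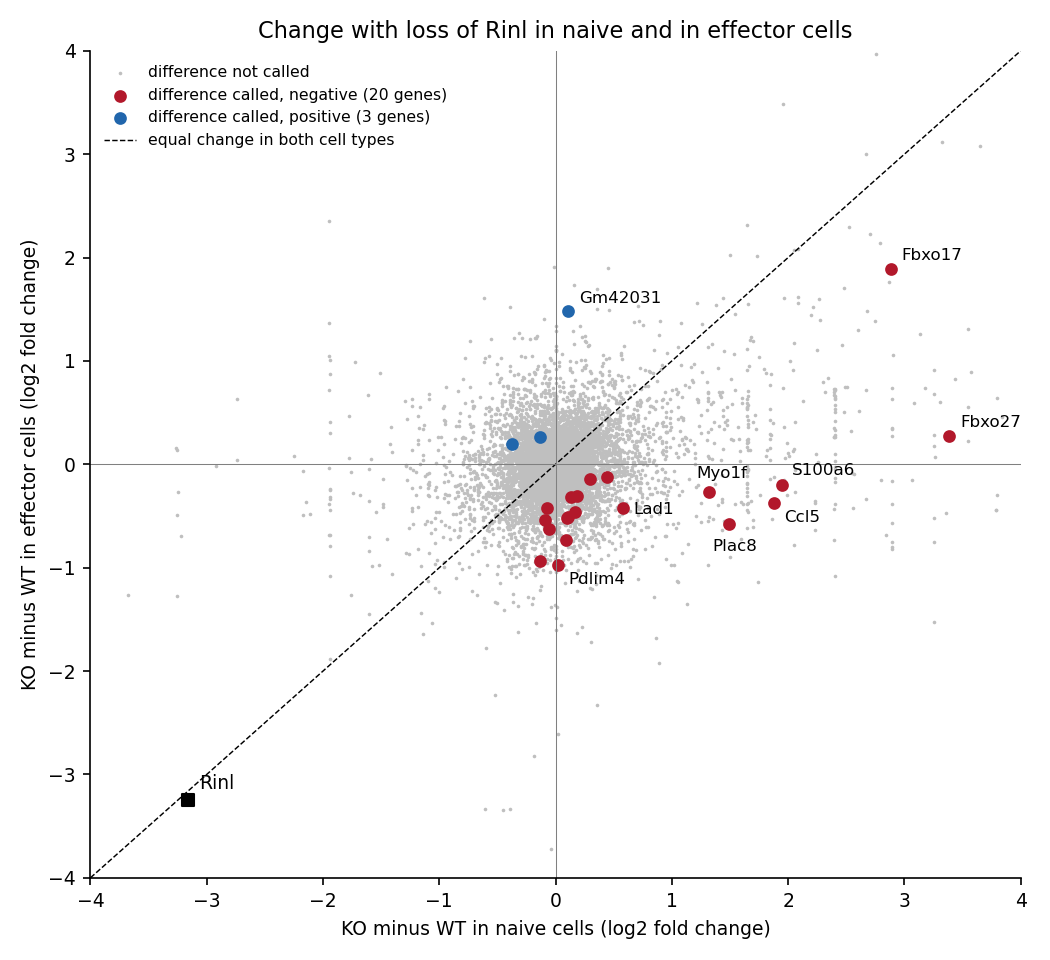
Log2 fold change of KO over WT in naive cells (x axis) against that in effector cells (y axis), 1 point per tested gene; coloured points are the 23 genes whose change differed between the states and the diagonal marks equal change. Fbxo27 and Fbxo17 lie far to the right at 3.39 and 2.89 in naive cells, Rinl lies close to the diagonal, and 19 genes fall outside the plotted range of -4 to 4.

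The largest difference belonged to Fbxo27, and Fbxo17 had the smallest p-value after it. Both encode F-box proteins of the group that binds sugar chains on glycoproteins, as substrate receptors of SCF ubiquitin ligases. They lie side by side on chromosome 7 upstream of Rinl: Fbxo27 at chr7:28692849-28699338 and Fbxo17 at chr7:28716804-28738144, both on the plus strand of GRCm38, beginning 96.1 and 72.2 kb before the start of Rinl. RefSeq lists 4 promoter windows for Fbxo27 and 2 for Fbxo17, and for each gene only that with the lowest start coordinate is shown. These windows (build GRCm38.p6, plus strand) run from 250 bases before to 50 after the listed start. They are shown because both neighbours rose in naive cells and their KO changes in effector cells differed from those in naive cells. Capitals mark GGGCGG, the GC box.
Fbxo27, chr7:28692599-28692898: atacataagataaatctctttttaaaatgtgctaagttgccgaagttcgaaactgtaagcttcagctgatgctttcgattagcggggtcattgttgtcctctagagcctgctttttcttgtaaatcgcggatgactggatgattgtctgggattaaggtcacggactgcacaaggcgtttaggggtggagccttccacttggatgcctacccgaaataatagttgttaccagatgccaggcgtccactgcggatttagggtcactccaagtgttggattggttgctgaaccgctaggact
Fbxo17, chr7:28716532-28716831: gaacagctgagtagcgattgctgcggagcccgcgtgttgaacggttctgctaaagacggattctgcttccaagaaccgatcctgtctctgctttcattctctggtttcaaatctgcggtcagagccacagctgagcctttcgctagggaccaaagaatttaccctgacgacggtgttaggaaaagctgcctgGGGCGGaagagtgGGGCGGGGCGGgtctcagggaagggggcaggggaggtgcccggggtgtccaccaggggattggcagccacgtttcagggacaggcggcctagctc
The Fbxo17 window held 3 matches to GGGCGG, of which a pair overlap, at a GC content of 59.3% with 17 CpG dinucleotides. The Fbxo27 window held none, at a GC content of 46.3% with 12 CpG. Searched on both strands of 32851 mouse promoter windows of this length, GGGCGG occurred in 35.7%, the RUNX core TGTGGT in 16.8%, the AP-1 motif TGACTCA in 5.20%, the T-box motif TCACACC in 3.98% and TATAAA in 13.6%. Of the last 4 motifs neither window held any match, which says only that these letters are not in it.

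Fbxo27 stood at 1.74, 1.72 and 2.24 CPM in the WT naive libraries and at 21.2, 18.6 and 18.6 CPM in the KO naive libraries. In effector cells it stood at 9.58, 12.2 and 13.6 CPM in WT and at 14.8, 13.2 and 15.1 CPM in KO. The naive groups were thus far apart, while the effector groups overlapped. The log2 fold change was 3.39 ± 0.15 (SE) in naive cells and 0.28 ± 0.12 in effector cells (edgeR adjusted p = 1.8e-13 and 0.22), a difference of -3.11 ± 0.20 (edgeR adjusted p = 1.2e-09). WT effector cells already held more Fbxo27 than WT naive cells, at 11.8 against 1.90 CPM, and the KO naive mean of 19.5 CPM exceeded both.

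Fbxo17 stood at 13.6, 12.3 and 12.3 CPM in WT naive and at 97.9, 92.8 and 92.6 CPM in KO naive libraries. In effector cells it stood at 9.46, 8.21 and 9.43 CPM in WT and at 33.9, 32.5 and 35.1 CPM in KO. Here KO was above WT without overlap in both states. The rise was 2.89 ± 0.066 in naive and 1.89 ± 0.077 in effector cells, and the difference was -0.99 ± 0.11 (edgeR adjusted p = 2.3e-05). The transcripts of Fbxo17 and Fbxo27 in GENCODE M21 shared no run of 50 bases, so reads of that length from 1 gene do not match the other exactly. The other tested members of the glycoprotein-binding F-box list had smaller differences, -0.53 for Fbxo44 and -0.0040 for Fbxo6 (edgeR adjusted p = 0.69 and 1.00).

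Of 196 genes tested within 5 Mb of Rinl, 20 (10.2%) were called in naive cells, 18 (9.18%) in effector cells and 12 in both. Rinl itself is counted in each of these. Of all 15905 tested genes, 1.18% were called in naive cells, 3.16% in effector cells and 71 genes in both. Fbxo27 and Fbxo17 were the 2 (1.02%) whose difference was called, against 0.145% of all tested genes. The remaining 21 called genes lay outside the window.

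**Figure D2:**
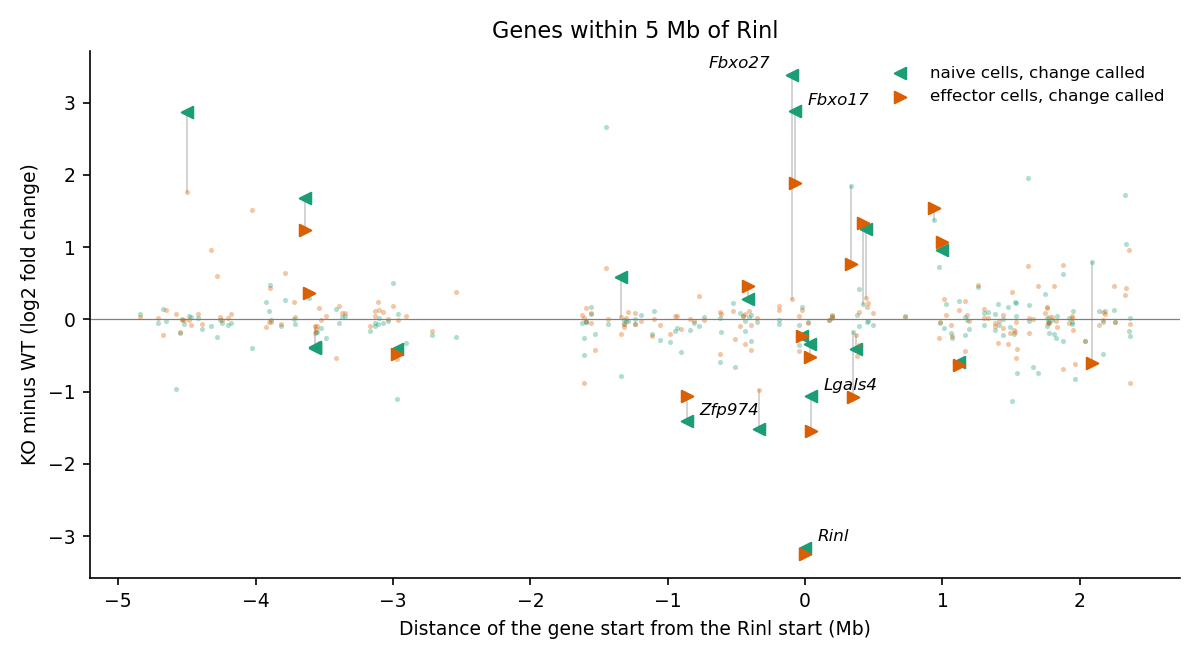
Log2 fold change of KO over WT (y axis) for genes tested within 5 Mb of Rinl, placed by the distance of their start from the start of Rinl in Mb (x axis); triangles mark changes called in naive (green, pointing left) or effector cells (orange, pointing right), small dots uncalled changes, and lines join the values of 1 gene, with not every gene shown. Fbxo27 and Fbxo17 stand at 3.39 and 2.89 in naive cells and separate in effector cells, where Fbxo27 is at 0.28 and Fbxo17 at 1.89.

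Genes that effector cells express strongly and naive cells hardly at all made up the next largest differences. Ccl5 (the chemokine RANTES), S100a6 (a calcium-binding protein), Plac8 and Myo1f (a class I myosin of leukocytes) were higher in KO than in WT naive libraries, at levels of 0.922 to 2.30 CPM, and all 4 had a lower mean in KO than in WT effector libraries. Myo1f stood at 0.894, 0.644 and 0.829 CPM in WT naive and at 1.73, 2.04 and 2.15 CPM in KO naive libraries. In effector cells Myo1f stood at 246, 255 and 278 CPM in WT and at 217, 219 and 209 CPM in KO. Neither pair of groups overlapped, and they moved in opposite directions. The change in Myo1f was 1.32 ± 0.21 in naive and -0.27 ± 0.048 in effector cells (edgeR adjusted p = 0.0014 and 0.0020), and the difference was -1.59 ± 0.22 (edgeR adjusted p = 7.4e-04).

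Ccl5 stood at 0.21, 0.537 and 0.497 CPM in WT naive and at 1.47, 1.15 and 1.95 CPM in KO naive libraries. Its effector levels were 242, 278 and 284 CPM in WT and 221, 205 and 194 CPM in KO. The groups again separated in both states, upward in naive and downward in effector cells. Its difference was -2.25 ± 0.37 (edgeR adjusted p = 0.019). S100a6 stood at 0.316, 0.161 and 0.332 CPM in WT naive and at 1.04, 1.10 and 0.922 CPM in KO naive libraries, with a difference of -2.15 ± 0.38 (edgeR adjusted p = 0.019). Its fall in effector cells, from a mean of 135 to 117 CPM, did not pass (edgeR adjusted p = 0.078). Plac8 averaged 0.733 and 1.88 CPM in WT and KO naive and 30.1 and 20.4 CPM in WT and KO effector libraries, with a difference of -2.06 ± 0.37 (edgeR adjusted p = 0.027).

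Few counts lie behind the naive side of these values. S100a6 had 6, 3 and 4 counts in the WT naive libraries and 24, 26 and 18 in the KO naive libraries, and Ccl5 had 4, 10 and 6 against 34, 27 and 38. With all libraries thinned to the smallest total, the difference remained called for Myo1f (-1.50, edgeR adjusted p = 0.018) but not for Ccl5 (-2.08, 0.063), S100a6 (-2.18, 0.057) or Plac8 (-1.60, 0.25). Leaving out 1 library ended the call for Ccl5 without library 1, 2, 7 or 11 (edgeR adjusted p from 0.059 to 0.084), for S100a6 without library 2, 7 or 8 (0.064 to 0.16) and for Plac8 without library 1, 2, 6, 7, 8, 9 or 11 (0.065 to 0.17). In CPM the naive rise was small beside the effector level, amounting to 0.41% of the WT effector mean for Ccl5, 0.46% for Myo1f, 0.56% for S100a6 and 3.79% for Plac8.

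Genes of this kind were also summed, as a description and not as support. The set of 113 genes with a mean of at least 20 CPM in effector and below 2 CPM in naive libraries was chosen after values were seen, to match the pattern of Ccl5, S100a6, Plac8 and Myo1f, and includes these 4. Their summed level was 69.7 to 83.3 CPM in WT naive and 92.9 to 102.1 CPM in KO naive libraries. In effector libraries it was 5874 to 6431 CPM in WT and 5239 to 5945 CPM in KO. The median change of the 113 genes was 0.48 in naive and 7e-04 in effector cells, so the set did not fall as a whole. In effector cells 26 of them were called lower and 7 higher, beside 1.72% and 1.45% of all tested genes. Any part of effector cells within the naive sort in these values was not tested.

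Markers of other cell types were summed in the same libraries. The 17 genes of the myeloid list summed to 31.7 to 44.9 CPM in WT naive and 46.2 to 60.6 CPM in KO naive libraries. The plasma cell list (9 genes) summed to 43.1 to 53.4 and 69.8 to 73.1 CPM, and the B cell list (17 genes) to 612 to 632 and 592 to 643 CPM. Markers of NK cells, NKT cells and gamma-delta T cells (9 of 12 listed) summed to 22.8 to 26.9 CPM in WT naive and 21.3 to 23.9 CPM in KO naive libraries, with Zbtb16 at 0 in WT naive and Klra1 at 0 in KO naive. In effector cells that list summed to 220 to 229 CPM in WT and 137 to 181 CPM in KO libraries. The B cell list summed there to 999 to 1185 CPM in WT and 1216 to 1472 CPM in KO. The plasma cell list was also higher in KO effector libraries, at 85.8 to 97.7 CPM in WT and 109 to 127 CPM in KO. The myeloid list overlapped there, at 46.9 to 78.3 CPM in WT and 59.8 to 87.3 CPM in KO. Of 8 tested genes of the NK, NKT and gamma-delta list, 7 had a negative difference, with a median of -1.91. For all genes tested the median was -3e-04. The median change of this list was 1.73 in naive and -0.605 in effector cells. Its naive side rests on low levels, with 2 of the 8 genes at 0 in a group, and its naive sum did not rise in KO. In this list 4 genes were called lower in KO effector cells, and 3 had a negative difference at an unadjusted p below 0.05. edgeR called no difference in it and DESeq2 called 1, which was negative. The part of these markers in the differences was not tested.

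**Figure D3:**
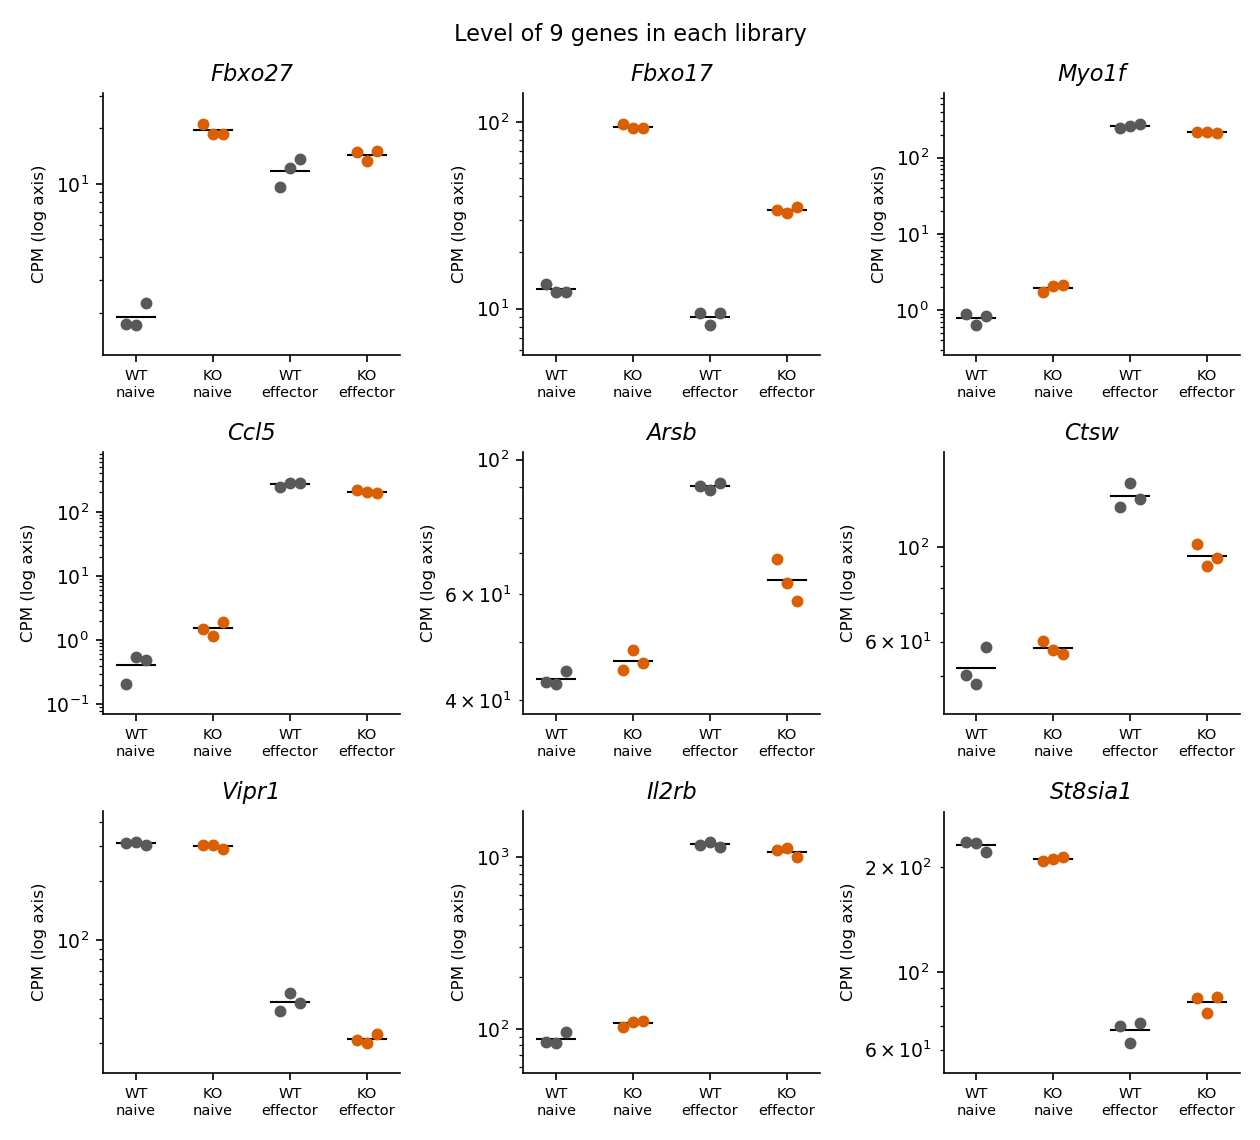
CPM in each of the 12 libraries, on log axes, for called genes of each pattern, with a bar at the mean of each group of 3 libraries. Myo1f and Ccl5 are higher in KO naive and lower in KO effector libraries, whereas the changes of Arsb and Vipr1 were called in effector cells only.

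The largest group of called genes, 11 of 23, was called as lower in KO effector cells and not called in naive cells. Arsb, a lysosomal sulfatase that trims dermatan and chondroitin sulfate, stood at 90.5, 89.1 and 91.6 CPM in WT effector and at 68.5, 62.6 and 58.5 CPM in KO effector libraries. Its naive levels were 42.9, 42.6 and 44.7 CPM in WT and 45.0, 48.4 and 46.2 CPM in KO. KO was lower without overlap in effector libraries, and in naive libraries it lay narrowly above WT with a change that did not pass. Arsb changed by -0.51 ± 0.055 in effector cells and by 0.10 ± 0.058 in naive cells, a difference of -0.62 ± 0.080 (edgeR adjusted p = 4.6e-04).

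Vipr1, a receptor for vasoactive intestinal peptide, is more abundant in naive cells. It stood at 312, 317 and 306 CPM in WT naive and at 304, 304 and 291 CPM in KO naive libraries. In effector cells it stood at 43.9, 54.2 and 47.9 CPM in WT and at 31.1, 30.1 and 33.3 CPM in KO, again without overlap. The naive libraries of the genotypes did not overlap either, but the naive change did not pass (edgeR adjusted p = 0.73). The difference for Vipr1 was -0.57 ± 0.083 (edgeR adjusted p = 0.0016). Ctsw, the protease cathepsin W of cytotoxic lymphocytes, stood at 124, 141 and 129 CPM in WT effector and at 102, 90.2 and 94.3 CPM in KO effector libraries. Its naive libraries overlapped, at 47.9 to 58.2 CPM in WT and 56.1 to 60.3 CPM in KO, and the difference was -0.63 ± 0.093 (edgeR adjusted p = 0.0027).

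Jaml, an adhesion and costimulatory receptor, stood at 17.7, 20.1 and 22.2 CPM in WT effector and at 13.3, 10.7 and 12.2 CPM in KO effector libraries, beside means of 16.2 and 17.2 CPM in naive cells. Its difference was -0.82 ± 0.14 (edgeR adjusted p = 0.0085). Sema4a, a semaphorin of immune cells, averaged 174 and 121 CPM in WT and KO effector libraries and 200 and 214 CPM in naive libraries, a difference of -0.62 ± 0.10. In effector cells KO lay below WT without overlap for Jaml, as for 8.73% of all tested genes. Pdlim4, a PDZ and LIM domain protein of the actin cytoskeleton, averaged 7.85 and 3.99 CPM in WT and KO effector libraries and 73.3 and 74.4 CPM in naive libraries, a difference of -0.99 ± 0.17. For all 3 genes the naive change was within 0.10 of 0 on the log2 scale.

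The other 5 genes had smaller or less interpretable changes. Galnt10, which starts O-linked glycan chains, averaged 151 and 113 CPM in WT and KO effector libraries, and its difference of -0.35 was the smallest in size among the 23. Golm1 and Glipr2, both proteins of the Golgi membrane, had differences of -0.45 and -0.49. The uncharacterised 1700025G04Rik averaged 12.6 CPM in WT and 6.65 CPM in KO effector libraries, with a difference of -0.80. The unnamed gene model Gm45552 averaged 67.8 CPM in WT and 46.9 CPM in KO effector libraries, with a difference of -0.45. It lies antisense to another gene, and reads of such a pair cannot be told apart unless strand was used in counting, which the sources used here do not state. Golm1 likewise overlaps Naa35 over 1297 bases.

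Il2rb, Hopx and Lad1 were called as higher in KO naive cells and not called in effector cells. Il2rb, the beta chain of the receptors for interleukin-2 and interleukin-15, stood at 84.2, 83.0 and 95.8 CPM in WT naive and at 102, 110 and 110 CPM in KO naive libraries. In effector cells it averaged 1185 CPM in WT and 1076 CPM in KO. The difference for Il2rb was -0.44 ± 0.081 (edgeR adjusted p = 0.019), and its naive rise equalled 1.66% of the WT effector level. Hopx, a homeodomain protein of Th1 memory cells, averaged 10.8 and 14.4 CPM in WT and KO naive libraries and 85.1 and 78.1 CPM in effector libraries, a difference of -0.56 ± 0.11 (edgeR adjusted p = 0.041). Lad1, an anchoring filament protein, averaged 5.58 and 8.19 CPM in naive and 8.57 and 6.37 CPM in effector libraries of WT and KO, a difference of -0.996 ± 0.18 (edgeR adjusted p = 0.019).

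The 3 positive differences belonged to St8sia1, Zfp862-ps and Gm42031. St8sia1, the sialyltransferase that makes ganglioside GD3, stood at 69.9, 62.8 and 71.5 CPM in WT effector and at 84.4, 76.5 and 84.7 CPM in KO effector libraries. Its naive levels were 236, 234 and 221 CPM in WT and 208, 210 and 214 CPM in KO. The order of the genotypes was thus reversed between the states without overlap in either, although the naive fall did not pass (edgeR adjusted p = 0.24). The difference for St8sia1 was 0.39 ± 0.073 (edgeR adjusted p = 0.019). Zfp862-ps, a pseudogene transcript, fell in naive cells from a mean of 10.9 to 8.45 CPM. It stood at 33.1 to 35.9 CPM in WT and 36.9 to 42.5 CPM in KO effector libraries. The difference for Zfp862-ps was 0.57 ± 0.11 (edgeR adjusted p = 0.032). An opposite-strand gene model overlaps it over 537 bases, with the same limit of strand as for Gm45552. The unnamed gene model Gm42031 averaged 3.45 CPM in WT and 9.59 CPM in KO effector libraries, with naive means of 2.61 and 2.84 CPM and a difference of 1.37 ± 0.26 (edgeR adjusted p = 0.023).

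**Figure D4:**
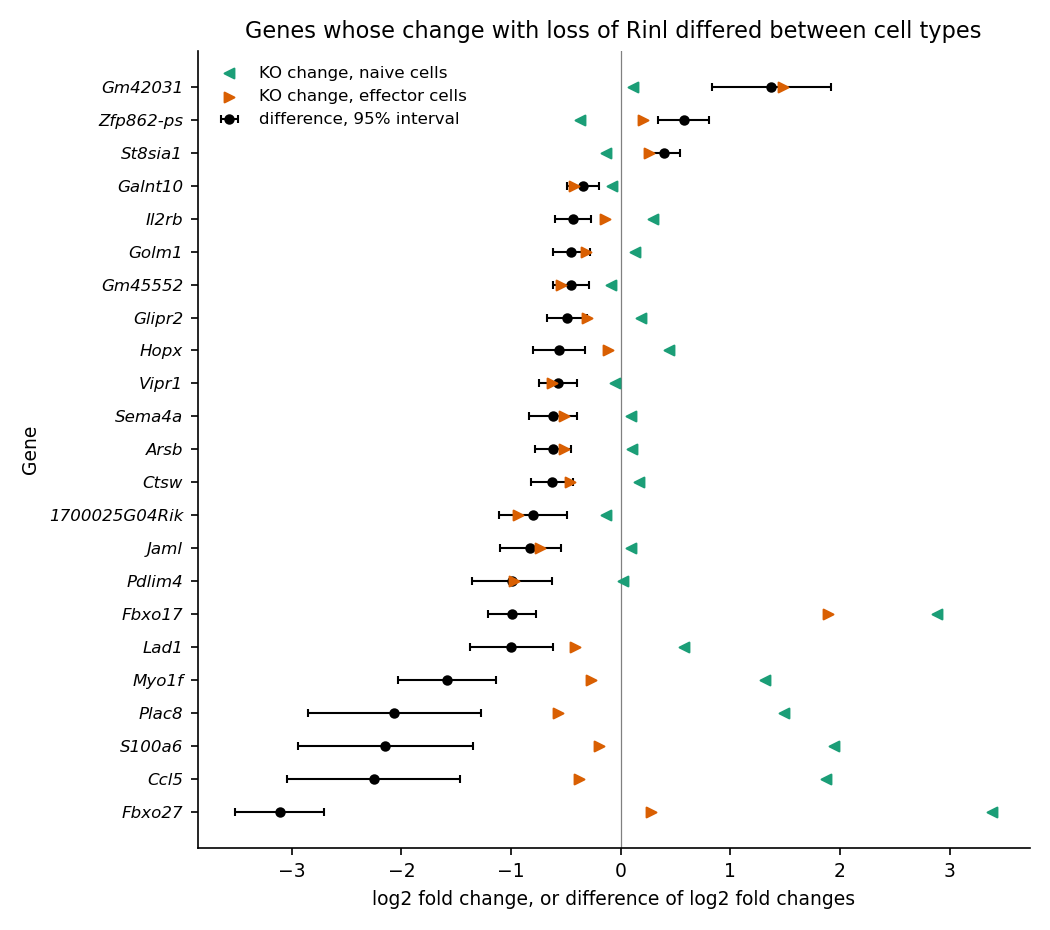
For each of the 23 called genes, the difference of the KO effects (black points, effector minus naive, with 95% intervals) and the KO change in naive (green triangles) and effector cells (orange triangles), all on the log2 scale (x axis). The differences run from -3.11 for Fbxo27 to 1.37 for Gm42031, and no interval includes 0.

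Lists of genes of the helper programmes were read by their counts and medians beside those of all genes tested, for which the median difference was -3e-04 and 50.1% of differences were negative. An unadjusted p below 0.05 was reached by 9.19% of all genes, 3.94% with a positive and 5.24% with a negative difference. Of 17 Th1 genes, edgeR called 2 differences (Ccl5 and Hopx), both negative, and DESeq2 called 4 (these with Il12rb1 and Nkg7), all negative. Their median was -0.54, and 15 of 17 differences were negative. Within the states, 3 of the 17 rose in naive cells and 6 fell in effector cells. Tbx21, which encodes the Th1 master regulator T-bet, averaged 93.4 CPM in WT and 61.8 CPM in KO effector libraries but 0.331 and 0.494 CPM in naive libraries, and its difference of -1.13 ± 0.49 did not pass (edgeR adjusted p = 0.48). Among the 6 Th1 genes with at least 5 CPM in naive cells, 5 had a negative difference and the median was -0.25. The summed Th1 level was 269 to 276 CPM in WT naive, 285 to 304 in KO naive, 2020 to 2341 in WT effector and 1628 to 1856 CPM in KO effector libraries.

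The effector and memory list also lay on the negative side. Of 20 tested, edgeR called 2 differences (S100a6 and Il2rb) and DESeq2 called 4 (these with Itgb1 and Lgals1), all negative. Of the 20 differences 18 were negative, with a median of -0.39. Itgb1, the integrin beta 1 chain, averaged 867 CPM in WT and 681 CPM in KO effector libraries beside 52.4 and 51.4 CPM in naive libraries. Its difference of -0.33 missed the threshold in edgeR (adjusted p = 0.10) and passed it in DESeq2. In the tissue-homing list of 18 genes no difference was called by edgeR, 3 had an unadjusted p below 0.05 and DESeq2 called 1, Ccr2. The median of that list was -0.37 without Ccr10, which was at 0 in KO naive libraries and fell from 9.53 to 2.48 CPM in effector cells. With Ccr10 it was -0.32, and -0.51 without library 3.

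The Tfh list lay on the other side. None of its 19 tested genes had a called difference by edgeR or DESeq2, and 4 had a positive difference at an unadjusted p below 0.05. Of all 19 differences 1, that of Cxcr5, was negative. The median was 0.26 without Ascl2, which is at 0 in naive libraries. Over all 19 genes it was 0.27, and it ranged from 0.15 without library 11 to 0.36 without library 12 when 1 library was left out. Tox, a nuclear factor of Tfh and chronically stimulated cells, rose in effector cells from 107 to 134 CPM and stood at 58.9 and 56.6 CPM in WT and KO naive libraries, a difference of 0.38 ± 0.10 (edgeR adjusted p = 0.21). Bcl6, the Tfh master regulator, had a difference of 0.47 ± 0.18 (edgeR adjusted p = 0.43), and Cxcr5, the receptor that leads cells into follicles, one of -0.09 ± 0.28. The Bcl6 difference ranged from 0.30 to 0.59 over 22 alternatives, and did not pass in 21 of them but passed in the other. The Treg list of 19 genes had no called difference by edgeR or DESeq2, 2 at an unadjusted p below 0.05, and a median of 0.01, which was between -0.07 and 0.08 over the alternatives run. Foxp3 averaged 48.6 and 58.4 CPM in WT and KO naive and 353 and 449 CPM in WT and KO effector libraries. The 95% interval of its difference was -0.15 to 0.31.

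**Figure D5:**
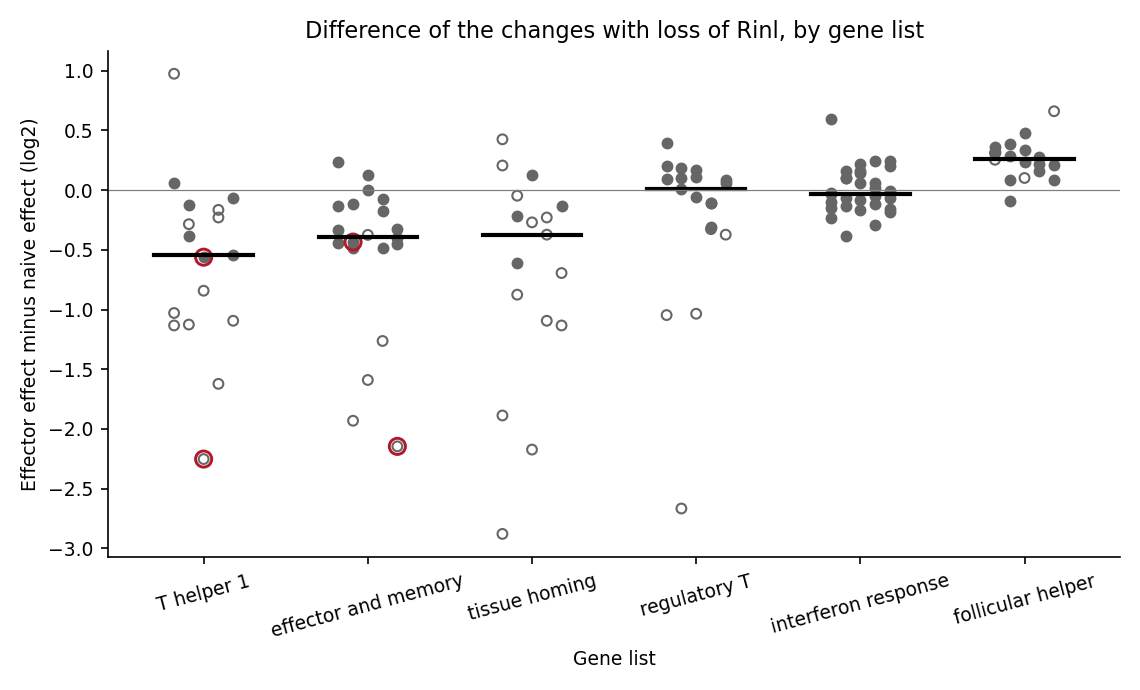
Difference of the KO effects (log2, effector minus naive) for each tested gene of 6 lists, leaving out genes at 0 in a group. Open circles have a mean below 5 CPM over the naive libraries, filled circles a higher one, red rings mark called differences and bars the list medians, which are -0.54 for Th1 and 0.26 for Tfh.

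All 30 interferon-induced genes tested had a fold change above 0 in both states. Of these, 15 rose in naive and 20 in effector cells, 10 of them in both, and none fell in either. No difference was called by edgeR or DESeq2, 5 had an unadjusted p below 0.05, and the median was -0.03, between -0.08 and 0.02 over the alternatives run. The differences ran from -0.38 (Mx1) to 0.59 (Ifi44), and for 24 of the 30 genes the 95% interval lay within 0.5 of 0. Ifit1, an RNA-binding antiviral protein, averaged 58.4 and 80.3 CPM in WT and KO naive and 56.8 and 81.5 CPM in WT and KO effector libraries, and its difference was 0.06 with an interval of -0.14 to 0.26.

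Genes called in both states mostly had the same sign in both. Of the 71 genes called in both, 68 had the same sign, 37 higher and 31 lower in KO. Counting Rinl itself, 12 of the 68 lay within 5 Mb of Rinl. Leaving out Fbxo17, whose difference was called, the 95% interval of the difference included 0 for 59 of 67 and lay within 0.5 of 0 for 56 of 67. It lay within 0.5 of 0 for 56.7% of all tested genes. The 67 were picked by calls of the same sign in both states, which favours such intervals, so these shares are a description. These 71 genes were 38.0% of those called in naive and 14.1% of those called in effector cells. The transcript D930028M14Rik was among them, with means of 7.07 and 22.9 CPM in WT and KO naive and 3.91 and 9.2 CPM in WT and KO effector libraries. It lies within 5 Mb of Rinl and overlaps a more abundant gene on the opposite strand over 4171 bases. The limit of unknown strand use given for Gm45552 holds for it too.

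Further lists described other sides of T cell biology. The 9 mitochondrially encoded genes tested all had positive differences, with a median of 0.38 and 4 at an unadjusted p below 0.05. For 0 of the 9 did all library combinations give 1 sign. The sum over all 13 listed overlapped between genotypes in both states. It was 13870 to 16160 CPM in WT naive and 13470 to 14420 CPM in KO naive libraries. In effector libraries it was 9563 to 11230 CPM in WT and 10170 to 12820 CPM in KO. Of 26 cell cycle genes, 22 had negative differences with a median of -0.13 and 1 at an unadjusted p below 0.05. Their median was -0.20 without library 3 and -0.07 with at least 5 CPM required in each cell type. Of 22 RAB5 and endosome genes, the median was 0.04, with 2 at an unadjusted p below 0.05. The 20 naive-state genes had a median of 0.04, with 4 at an unadjusted p below 0.05. Neither edgeR nor DESeq2 called a difference in these 4 lists. Of 10 cytotoxic granule genes, Ctsw had a called difference and the median was -0.17.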

How the data were processed

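Per the labels' protocols, libraries of sorted cells were prepared with a stranded mRNA kit. The authors deposited whole-number counts per gene and FPKM values for the same 12 libraries, per the file headers. On 11921 genes the deposited FPKM equalled counts divided by 1 length per gene and 1 factor per library, which makes the tables a single measurement. The submitters' processing notes name STAR, Picard and DESeq2 1.30.0, with mm10 and GRCm38 as builds. The sources used here do not give the counter or its strand setting. Columns give genotype, cell type and a number from 1 to 12, which was used to number the libraries.

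Counts of 15905 of 55487 genes passed edgeR's filterByExpr by group. With edgeR 4.0.16 in R 4.3.3, TMM factors were computed and a robust quasi-likelihood model of the 4 group means was fitted to all 12 libraries. Benjamini-Hochberg adjustment ran over every tested gene, with a threshold of 0.05. A called gene is 1 below that threshold. SE are the fold change divided by the root of F, and 95% intervals from the t distribution of the fit. CPM are TMM-scaled, and the 81 combinations used log2 CPM with a prior count of 2. Replicates correlated at r of 0.990 to 0.995 across genes and differed by more than sampling noise. Each was counted as 1 sample, although such a spread does not show that they are from separate animals. The total count of a library limits the precision of low genes.

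Named genes were Rinl, up to 12 called genes per direction with at least 5 CPM in the highest group and 1 sign over all combinations, up to 4 called members per list, fixed lineage genes, and the 6 largest naive changes called in both states; the unnamed gene models Gm42031, Gm45552 and 1700025G04Rik were added after their values were seen, as were list members described beside their list. Some genes that this rule takes in are not reported here. The comparison, its members and the 29 gene lists were chosen with earlier results of these data known. Alternatives were DESeq2 1.42.0 and its size factors, limma-voom (limma 3.58.1), other filters, thinned counts, limma on log2 of FPKM plus 1 or 0.1, fits of 6 libraries, genes within 5 Mb of Rinl left out, and each library left out. Promoters are RefSeq windows, matched by symbol for 18 of the 23 called genes.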

Additional observations from a re-analysis of the deposited data

Results flagged for a closer look

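For 23 genes the KO effect in effector cells differed from that in naive cells by the test of the difference itself (edgeR's quasi-likelihood test, adjusted p below 0.05). The log2 differences, effector minus naive, were -3.11 for Fbxo27, -2.25 for Ccl5, -2.15 for S100a6, -2.06 for Plac8 and -1.59 for Myo1f. They were -0.996 for Lad1, -0.99 for Fbxo17, -0.99 for Pdlim4, -0.82 for Jaml and -0.80 for 1700025G04Rik. They were -0.63 for Ctsw, -0.62 for Arsb, -0.62 for Sema4a, -0.57 for Vipr1 and -0.56 for Hopx. The smallest negative differences were -0.49 for Glipr2, -0.45 for Gm45552, -0.45 for Golm1, -0.44 for Il2rb and -0.35 for Galnt10. The positive differences were 0.39 for St8sia1, 0.57 for Zfp862-ps and 1.37 for Gm42031.

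Of these genes Fbxo27, Fbxo17 and Arsb were called under all 22 alternatives, and Myo1f under the 21 in which it was tested. Myo1f was not tested with at least 5 CPM required in each cell type, and its difference ranged from -1.73 to -0.59. Ctsw, Gm45552, Jaml and Vipr1 were also called in all 12 fits that left out 1 library, but not on the log2 FPKM scale. None of the 23 changed sign under any alternative run. Leaving out library 2, 8 or 9 ended the call for Il2rb, library 2, 6, 8 or 9 for Golm1 and Lad1, library 2, 6, 7, 8 or 11 for Glipr2, and library 2, 5, 7, 8 or 11 for 1700025G04Rik. The call was lost without library 6, 7, 8 or 11 for Pdlim4, without 1, 3, 5, 6, 7, 8 or 11 for Sema4a, without 1, 2, 5, 7, 8 or 9 for St8sia1, and without 1, 3, 6, 7, 8 or 9 for Gm42031. Hopx, Galnt10 and Zfp862-ps lost it in 8, 9 and 9 of the 12 fits.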

How the results depend on the processing

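The number of called differences, 23 with edgeR, was 23 with DESeq2's size factors in edgeR, 61 with DESeq2, 277 with no filter on low counts, 15 with counts thinned to the smallest library, 13 on log2(FPKM + 1), 8 on log2(FPKM + 0.1), and 47 at an adjusted p below 0.1, a threshold chosen after seeing the data. It ranged from 10 to 85 when 1 library was left out: 11 without library 2, 85 without 4, 14 without 6, 12 without 7, 10 without 8, 15 without 9, 47 without 10 and 39 without 12. The 187 calls in naive cells became 501 with no filter, 40 on log2(FPKM + 1) and 528 with only the 6 naive libraries fitted, and ranged from 66 to 135 with 1 library left out. The 503 calls in effector cells became 959, 262 and 230 in the same order, and ranged from 194 to 662. The causes were not tested. Differences that were not called changed sign for Cxcr5 (0.10 on log2(FPKM + 1)) and Gata3 (1e-04 with thinned counts). With 1 library left out, Cxcr5 ranged from -0.24 to 0.036 (positive without library 4), Ifit1 from -0.030 to 0.12 (negative without library 2, at -0.011, and 7), and Gata3 from -0.054 to 0.032 (positive without library 1, 5, 7, 10 or 12). The Th1 median was -0.26 with at least 5 CPM required in each cell type. No paired analysis was possible because the columns carry no replicate number within a group. Depth limits the naive side of genes below 2 CPM.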
